A study of Mus musculus with 15 samples.

Results

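Germ cell transcription regulators were followed from naive embryonic stem cells (ESCs) through epiblast-like cells (EpiLCs) to primordial germ cell-like cells (PGCLCs). The group was a named list of 9 of the 55536 genes counted: Dmrt1, Sohlh1, Sohlh2, Figla, Nobox, Lhx8, Taf7l, Taf4b and Ctcfl. The series held 15 mouse RNA-seq libraries, 3 each of naive ESCs kept in 2i and LIF, EpiLCs after 48 h in Activin A and bFGF, and Stella-eGFP+ PGCLCs collected on days 2, 4 and 6 (D2, D4 and D6) of doxycycline induction in GK15 medium. Every group, ESCs and EpiLCs included, carried the inducible Prdm1, Prdm14, Tfap2c and Nanog transgenes, of which only the PGCLC groups were induced, in ESC lines picked as clones. The sources used here do not state which clone, or how many, gave the libraries, and nothing says that replicates came from separate cultures, so p-values measure only the spread between these samples, which may be technical.

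These genes encode nuclear proteins that direct transcription in the germ line, and most are silent in somatic tissues. DMRT1 is a DM-domain DNA-binding protein of germ cells and Sertoli cells. SOHLH1, SOHLH2 and FIGLA are basic helix-loop-helix (bHLH) factors, NOBOX and LHX8 are homeodomain factors of the oocyte, TAF7L and TAF4B are germline versions of subunits of the general factor TFIID, and CTCFL, also called BORIS, is the germline paralogue of the insulator protein CTCF.

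Of the 9 genes, 4 rose strongly from ESCs to D6 PGCLCs (Dmrt1, Sohlh2, Taf7l and Ctcfl), and each was already well above its ESC level in EpiLCs, before induction. Taf7l and Ctcfl then fell on D2 and were higher again on D6. Sohlh2 fell less on D2, to 56.6% of its EpiLC mean, and rose from D2 to D6. Dmrt1 stayed within 1.5-fold of its EpiLC mean. Taf4b was expressed at a similar level in the 5 groups, and Nobox, Sohlh1 and Figla were near the limit of detection. Lhx8 was below detection in all 5 groups, where detection required more than 3 counts in at least 1 of the 3 libraries of a group.

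**Figure D1:**
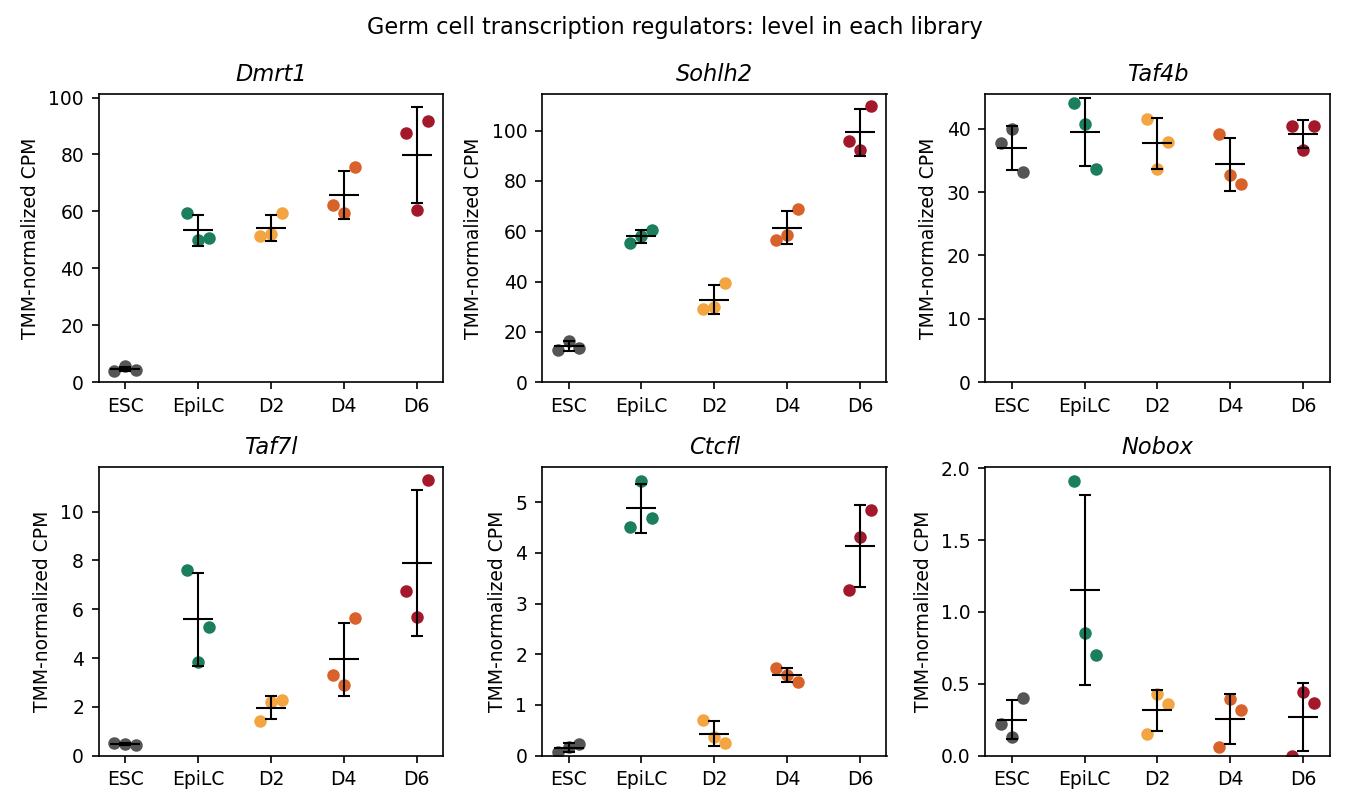
Level of the 6 regulators that were above the detection floor in every group, in CPM (counts scaled to a common library size after TMM normalization), on a linear axis that starts at 0 and differs between panels. Each point is 1 library of ESCs, EpiLCs or PGCLCs on D2, D4 or D6, and the bar and whiskers are the mean and SD of 3 libraries. Ctcfl, Taf7l and Sohlh2 dip on D2 between higher EpiLC and D6 levels, and Taf4b stays between 31.2 and 44.1 CPM in the 15 libraries.

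The libraries held 22555021 to 42725681 counts, so that 3 counts corresponded to 0.0661 to 0.132 CPM, the TMM-normalized unit used throughout. D6 replicate 1 stood apart: it had counts for 18061 genes, against 21103 to 24343 in the other 14 libraries. Of 1155 genes with 10 to 25 counts in both other D6 libraries, 352 (30.5%) had 0 counts in it, so values at or near 0 in that library are given with this in view. The cell labels were checked against marker genes. The summed CPM of 8 primordial germ cell markers was 158 to 254 in ESC and EpiLC libraries and 974 to 1517 in PGCLC libraries. This sum included Dppa3 (Stella), whose reporter was used to sort the PGCLCs, so that part of the rise is no check of the labels. Mean Dppa3 was 452 CPM on D2 and 475 on D6, against 53.9 in ESCs and 85.2 in EpiLCs. The summed CPM of 6 formative epiblast markers was 2836 to 3058 in EpiLCs and 110 to 220 elsewhere. In bulk RNA, fewer cells expressing a gene and less of its RNA per cell cannot be told apart.

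Promoter sequences, 250 bases before to 50 after the annotated start, are shown for Sohlh1 and Taf7l, the 2 with an E-box there among the 6 genes of the group whose promoters were listed, and for Sohlh2, the partner of Sohlh1, which has none. They come from RefSeq on GRCm38.p6 and are given 5' to 3' on the gene's strand. Capitals mark matches on either strand to the E-box CACGTG, a motif bound by dimers of MAX, or to the GC box, GGGCGG or CCGCCC. Sohlh1 lay at chr2:25847199-25847498 on the minus strand, Sohlh2 at chr3:55181794-55182093 on the plus strand and Taf7l at chrX:134476441-134476740 on the minus strand.
Sohlh1: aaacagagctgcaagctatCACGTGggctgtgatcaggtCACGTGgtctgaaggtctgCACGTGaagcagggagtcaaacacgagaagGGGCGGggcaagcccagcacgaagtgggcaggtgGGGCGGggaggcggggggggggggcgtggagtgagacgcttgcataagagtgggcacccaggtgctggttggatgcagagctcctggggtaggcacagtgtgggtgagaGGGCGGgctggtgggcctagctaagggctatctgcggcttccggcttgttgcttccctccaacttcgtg
Sohlh2: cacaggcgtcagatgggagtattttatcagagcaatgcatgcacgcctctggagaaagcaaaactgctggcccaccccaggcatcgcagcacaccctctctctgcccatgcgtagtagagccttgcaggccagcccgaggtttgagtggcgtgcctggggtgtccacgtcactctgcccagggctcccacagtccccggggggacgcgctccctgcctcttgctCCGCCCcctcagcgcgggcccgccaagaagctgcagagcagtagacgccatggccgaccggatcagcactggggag
Taf7l: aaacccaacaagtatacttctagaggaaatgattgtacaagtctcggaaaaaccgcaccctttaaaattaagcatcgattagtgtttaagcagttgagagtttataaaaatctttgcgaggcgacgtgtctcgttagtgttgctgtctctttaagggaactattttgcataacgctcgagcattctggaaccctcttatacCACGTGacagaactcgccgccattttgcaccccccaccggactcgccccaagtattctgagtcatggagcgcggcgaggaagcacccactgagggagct

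The Sohlh1 promoter held 3 E-boxes and 3 GC boxes, the Taf7l promoter held 1 E-box and no GC box, and the Sohlh2 promoter held 1 GC box and no E-box. Of 32851 promoters of the same length, 7.15% held the E-box and 35.7% the GC box. Promoters were listed for 6 of the 9 genes, the others being Dmrt1, Taf4b and Ctcfl. Neither the E2F motif TCCCGC (in 20.0% of all promoters) nor the homeobox core TAATTG (8.0%) occurred in those 6. CG dinucleotides numbered 17 in Sohlh2 and Taf7l, 16 in Figla, 14 in Sohlh1, 13 in Nobox and 4 in Lhx8, against a median of 7 over all promoters. Of all promoters, 68.6% held fewer than Sohlh2 or Taf7l, 62.1% fewer than Nobox and 31.4% fewer than Lhx8, so none of these counts is extreme. These matches describe the letters only.

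Dmrt1 (chr19:25505618-25604329, plus strand, ENSMUSG00000024837) was switched from a low level in ESCs to a high one in EpiLCs. Its counts were 112, 126 and 127 in the 3 ESC libraries and 1555, 1514 and 1382 in EpiLCs. On D2 they were 1672, 1450 and 1980, on D4 2055, 1971 and 2634, and on D6 3328, 2747 and 3233. Every EpiLC and PGCLC library lay far above every ESC library, while EpiLC and D2 values overlapped. Mean levels were 4.62 CPM ± 0.785 (SD, n = 3) in ESCs, 53.3 ± 5.36 in EpiLCs, 54.2 ± 4.53 on D2, 65.7 ± 8.55 on D4 and 79.9 ± 16.9 on D6. By the edgeR quasi-likelihood test, the log2 fold change of Dmrt1 in EpiLCs over ESCs was 3.54 (SE 0.17, adjusted p = 3.65e-12) and that of D6 over ESCs was 4.12 (SE 0.17, adjusted p = 7.91e-13). From EpiLCs to D2 the log2 difference was 0.024 (adjusted p = 0.903), with an interval of ±2 SE from -0.26 to 0.30, and its sign turned with DESeq2's size factors (-0.024). The D6 over EpiLC difference of 0.58 had an adjusted p of 0.00154 and did not reach the cutoff of an absolute log2 fold change of 1 that was also required of a call.

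Sohlh2 (chr3:55182028-55209957, plus strand, ENSMUSG00000027794), a bHLH factor of spermatogonia and early oocytes, reached the highest level of the group per length of exon on D6. ESC libraries held 352, 375 and 410 counts, EpiLCs 1444, 1772 and 1649, and D2 PGCLCs 945, 834 and 1320. D4 libraries held 1871, 1943 and 2406 counts and D6 libraries 3652, 4185 and 3878. The 3 days did not overlap in CPM, and D2 lay between ESCs and EpiLCs. The means were 14.3 CPM ± 1.87 (SD, n = 3) in ESCs, 58.0 ± 2.64 in EpiLCs, 32.8 ± 5.90 on D2, 61.4 ± 6.57 on D4 and 99.3 ± 9.35 on D6. Sohlh2 rose in EpiLCs over ESCs by 2.02 on the log2 scale (SE 0.13, edgeR adjusted p = 2.13e-10) and from D2 to D6 by 1.6 (SE 0.12, adjusted p = 3.73e-08). The D2 over EpiLC log2 difference was -0.82 (adjusted p = 1.47e-05) and stayed inside the fold cutoff, as did the D4 over D2 (0.90, adjusted p = 0.00016) and D6 over D4 (0.69, adjusted p = 0.00104) differences. Without D2 replicate 3, the highest D2 library, the D4 over D2 difference was 1.06 and was called. D6 exceeded ESCs by 2.80 (SE 0.13, adjusted p = 4.33e-12), and the D6 over EpiLC difference of 0.78 (adjusted p = 1.94e-05) stayed inside the cutoff.

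Sohlh1 (chr2:25842995-25847248, minus strand, ENSMUSG00000059625), the partner of SOHLH2 in germ cells, was not found in ESCs. Its counts were 0, 0 and 0 in ESCs and 12, 1 and 9 in EpiLCs. D2 libraries held 1, 1 and 3, D4 libraries 3, 0 and 0, and D6 libraries 14, 3 and 3. Only 3 libraries, EpiLC replicates 1 and 3 and D6 replicate 1, were above the floor of 3 counts, and the gene passed the filter only through them, so its calls describe libraries that had to be high for it to be tested. EpiLCs were called over ESCs (edgeR adjusted p = 0.0107), and their mean CPM was at least 2.41-fold the floor of 3 counts in each ESC library. That bound on the means rests on EpiLC replicates 1 and 3, as EpiLC replicate 2 held 1 count, below the floor. D6 was also called over ESCs (adjusted p = 0.023), at least 1.52-fold higher by the same measure. That bound rests on D6 replicate 1, the library with counts for the fewest genes, as D6 replicates 2 and 3 were at the floor. Without D6 replicate 1, or with only the groups compared in the fit, Sohlh1 did not pass the filter and neither call could be made. The D6 call was also lost without ESC replicate 1, 2 or 3, where adjusted p was 0.0601, 0.054 and 0.0628.

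Figla (chr6:86016171-86020996, plus strand, ENSMUSG00000030001), the oocyte bHLH factor that activates the zona pellucida genes, was removed by the filter on low counts and was not tested. Its counts were 0, 0 and 0 in ESCs, 1, 4 and 2 in EpiLCs, 2, 0 and 5 on D2, 2, 0 and 7 on D4, and 0, 1 and 4 on D6. ESCs were below detection, and in each other group a single library passed the floor.

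Nobox (chr6:43303674-43309554, minus strand, ENSMUSG00000029736), a homeodomain factor needed in oocytes of early follicles, was highest in EpiLCs at a low level. Counts were 6, 3 and 12 in ESCs, 50, 26 and 19 in EpiLCs, 5, 12 and 12 on D2, 2, 13 and 11 on D4, and 0, 20 and 13 on D6. Mean levels were 1.16 CPM ± 0.661 (SD, n = 3) in EpiLCs and 0.251 to 0.314 in the other groups. In CPM the 3 EpiLC libraries lay above the other 12, with replicate 1 well above the other EpiLC libraries. D6 replicate 1, the library that lacked many genes of low count, held the 0. The EpiLC over ESC log2 difference of 2.16 (SE 0.86) was called with an edgeR adjusted p of 0.0428. The call was lost in 10 of 15 fits that each left out 1 library, namely each of the 3 ESC and 3 D2 libraries, EpiLC replicates 1 and 2 and D4 replicates 2 and 3, and without EpiLC replicate 1 the difference was 1.61 (adjusted p = 0.191). D6 was lower than EpiLCs by a log2 difference of -2.07 (SE 0.83, adjusted p = 0.0409), a call lost in 7 of 15 such fits, namely without EpiLC replicates 1 and 2, D6 replicates 1 and 3, ESC replicate 1, D2 replicate 3 or D4 replicate 3. Without EpiLC replicate 1 it was -1.49 (adjusted p = 0.2), and without D6 replicate 1 it was also -1.49 (adjusted p = 0.0701). The D2 over EpiLC difference of -1.87 (adjusted p = 0.0686) was not called here or with DESeq2's size factors in edgeR, and was called in 4 other alternatives: DESeq2 (-1.93, adjusted p = 0.0497), no filter (adjusted p = 0.0328), only the groups compared (adjusted p = 0.0104) and the replicate block (adjusted p = 0.0496). It was also called without D6 replicate 1 (adjusted p = 0.0153) and in none of the 14 other fits that left out 1 library.

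Lhx8 (chr3:154306294-154330659, minus strand, ENSMUSG00000096225), a LIM-homeodomain factor of oocytes, was also removed by the filter. It had 1, 1 and 3 counts in ESCs, 0, 0 and 1 in EpiLCs, 1, 0 and 1 on D2, 2, 0 and 1 on D4, and 0, 0 and 1 on D6. No library exceeded 3 counts, which at these depths does not show that the gene is absent.

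**Figure D2:**
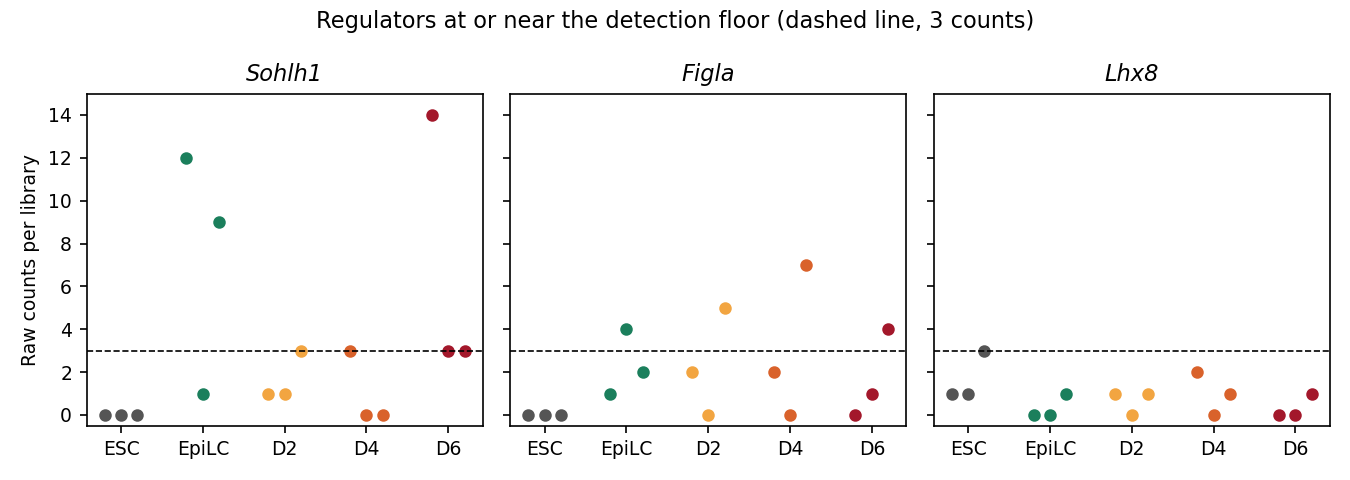
Raw counts of Sohlh1, Figla and Lhx8 in each of the 15 libraries, 3 points for each of ESCs, EpiLCs and PGCLCs on D2, D4 and D6. The dashed line is the detection floor of 3 counts, which Sohlh1 passed in 3 libraries, with 12, 9 and 14 counts, and which no Lhx8 library passed.

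Taf7l (chrX:134460118-134476490, minus strand, ENSMUSG00000009596), the germline paralogue of the TFIID subunit TAF7, was barely expressed in ESCs and higher in every later group. ESC libraries held 14, 11 and 13 counts, EpiLCs 199, 117 and 144, and D2 PGCLCs 47, 61 and 76. D4 libraries held 109, 96 and 197 counts and D6 libraries 256, 258 and 398. In CPM, D2 did not overlap with EpiLCs, D4 or D6, and replicate 3 was the highest library on each of the 3 days. The means were 0.476 CPM ± 0.038 (SD, n = 3) in ESCs, 5.58 ± 1.90 in EpiLCs, 1.97 ± 0.460 on D2, 3.95 ± 1.48 on D4 and 7.90 ± 2.98 on D6. Taf7l rose from ESCs to EpiLCs by 3.54 on the log2 scale (SE 0.39, edgeR adjusted p = 3.21e-07), and the D2 over EpiLC change was -1.5 (SE 0.32, adjusted p = 0.000683). It rose from D2 to D6 by 2.00 (SE 0.32, adjusted p = 9.45e-05). On D6 it exceeded ESCs by 4.04 (SE 0.38, adjusted p = 5.81e-08), and its difference from EpiLCs was 0.50 (adjusted p = 0.165), with an interval of ±2 SE from -0.10 to 1.10.

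The 2-day steps of Taf7l lay at the cutoff. D4 over D2 was called at 1.01 (SE 0.32, edgeR adjusted p = 0.0494), and the call was lost in 8 of 15 fits that each left out 1 library, namely without each D2 library, D4 replicate 3, each ESC library or EpiLC replicate 3. Without D4 replicate 3 the difference was 0.66 (adjusted p = 0.27) and without D2 replicate 1 it was 0.82 (adjusted p = 0.193). Same-numbered D2 and D4 libraries deviated together, and under a replicate block the D4 over D2 difference was 0.96 (SE 0.29, adjusted p = 0.0346), or 0.94 (SE 0.23, adjusted p = 0.0162) in a fit of the PGCLC groups alone, both inside the fold cutoff. D6 over D4 was not called at 0.996 (adjusted p = 0.0378), but was called without D4 replicate 3 (1.34), D6 replicate 1 (1.10) or D6 replicate 2 (1.18).

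Taf4b (chromosome 18, plus strand, ENSMUSG00000054321), a TFIID subunit of gonads that supports germ cell maintenance, had the highest ESC level of the group per length of exon and kept it. Its counts were 1035, 911 and 991 in ESCs, 1152, 1239 and 915 in EpiLCs, 1358, 938 and 1264 on D2, 1292, 1086 and 1091 on D4, and 1541, 1665 and 1429 on D6. The groups overlapped in CPM, with means of 37.0 ± 3.44 (SD, n = 3), 39.5 ± 5.37, 37.7 ± 4.01, 34.4 ± 4.21 and 39.2 ± 2.21 in the same order. No comparison called it, and the D6 over ESC log2 difference was 0.09 (edgeR adjusted p = 0.561), with an interval of ±2 SE from -0.15 to 0.32. The D6 over EpiLC difference of -0.0094 had the opposite sign with no filter on low counts (0.0048).

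Ctcfl (chr2:173093609-173119525, minus strand, ENSMUSG00000070495) was called in every comparison of neighbouring stages. Counts were 2, 4 and 7 in ESCs, 118, 165 and 128 in EpiLCs and 23, 10 and 8 on D2. They were 57, 53 and 51 on D4 and 124, 196 and 171 on D6. D2, D4 and D6 did not overlap with each other, whereas EpiLCs and D6 did. Mean levels were 0.161 CPM ± 0.0817 (SD, n = 3) in ESCs, 4.88 ± 0.482 in EpiLCs, 0.434 ± 0.242 on D2, 1.6 ± 0.134 on D4 and 4.14 ± 0.809 on D6. Ctcfl rose from ESCs to EpiLCs by 4.88 on the log2 scale (SE 0.41, edgeR adjusted p = 1.14e-08), and the D2 over EpiLC change was -3.47 (SE 0.36, adjusted p = 1.55e-07), which left 8.90% of the EpiLC mean CPM. It then rose from D2 to D4 by 1.86 (SE 0.36, adjusted p = 0.00254) and from D4 to D6 by 1.37 (SE 0.31, adjusted p = 0.00724). D6 exceeded ESCs by 4.64 (SE 0.41, adjusted p = 2.54e-08), and its difference from EpiLCs was -0.24 (adjusted p = 0.509), with an interval of ±2 SE from -0.83 to 0.35. An antisense gene, Ctcflos, shares 171 exon bases with Ctcfl, 5.32% of its exons, and had 6 to 17 counts in EpiLCs, 10 to 21 on D6 and at most 4 elsewhere. The library kit keeps strand, but whether the counting used it is not given in the sources used here.

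**Figure D3:**
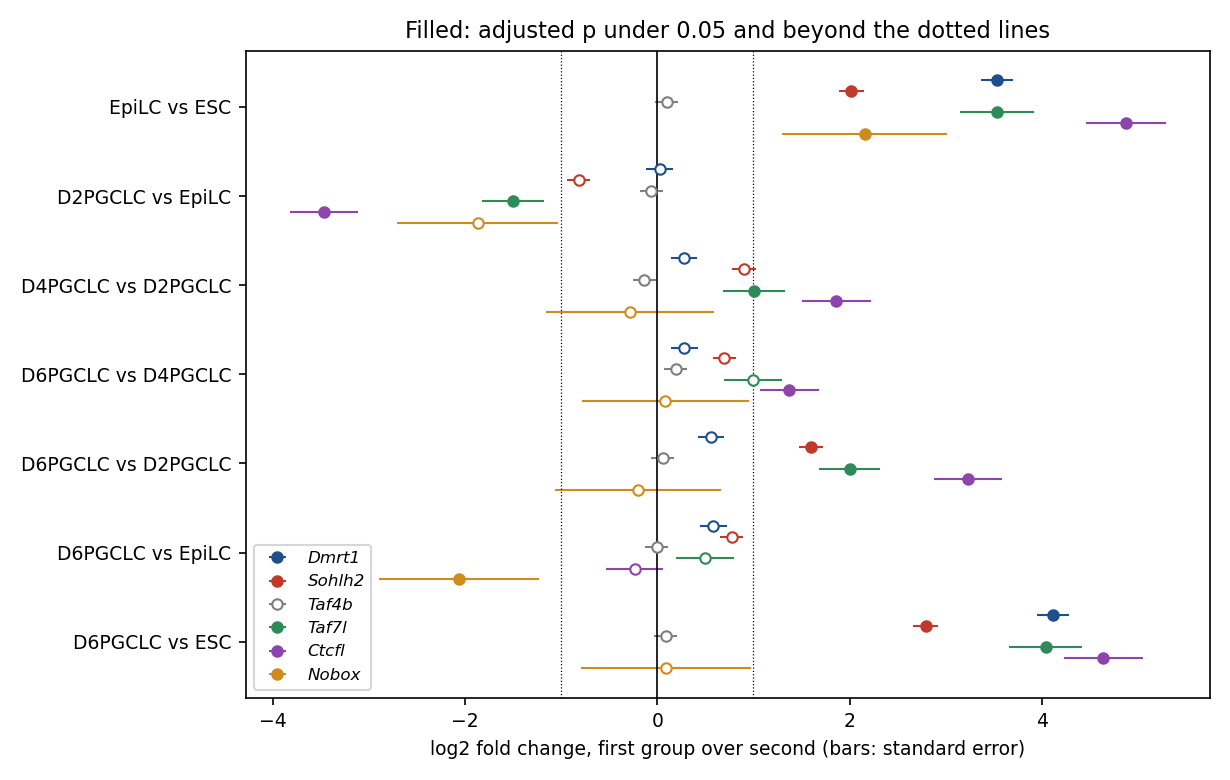
Log2 fold changes of 6 regulators in the 7 comparisons, as the first named group over the second, with bars of 1 standard error from the edgeR fit. Filled points lie beyond the dotted lines at -1 and 1 and have an adjusted p under 0.05. Sohlh1 is left out because its ESC libraries held 0 counts, and the D2 over EpiLC points of Taf7l and Ctcfl are the filled ones on the left in that row.

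Calls over the group were set beside those over all 18090 genes tested. The comparisons share libraries, so their counts are not independent, and 7 of the 9 genes were tested. In EpiLCs over ESCs 6 of the 9 were called higher (Dmrt1, Sohlh2, Taf7l, Ctcfl, Nobox and Sohlh1), against 14.4% of all tested genes, and 0 lower, against 11.9%. Without Sohlh1, which passed the filter through 3 libraries, 5 were called higher there. In D2 PGCLCs over EpiLCs 2 were called lower (Taf7l and Ctcfl), against 14.4%, and 0 higher, against 11.0%. In D6 over ESCs 5 were called higher (Dmrt1, Sohlh2, Taf7l, Ctcfl and Sohlh1), against 15.8%, and 0 lower, against 10.3%, and 4 were called higher without Sohlh1.

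Within PGCLCs the background was lower. From D2 to D4 2 were called higher (Taf7l and Ctcfl), or 1 (Ctcfl) with the replicate block, against 2.56% of all tested genes, and 0 lower, against 0.376%. From D4 to D6 1 was called higher (Ctcfl), against 2.29%, and 0 lower, against 0.785%. Over both steps, from D2 to D6, 3 were called higher (Sohlh2, Taf7l and Ctcfl), against 10.9%, and 0 lower, against 2.75%. In D6 over EpiLCs 1 was called lower (Nobox), against 12.0%, and 0 higher, against 15.9%, also 0 by DESeq2, with 2 higher at an unadjusted p under 0.05. These were Dmrt1 and Sohlh2, whose adjusted p values of 0.00154 and 1.94e-05 were past the threshold and whose differences missed the fold cutoff only. In each other direction with a count of 0 by edgeR, the count was also 0 by DESeq2 and at an unadjusted p under 0.05.

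As a description, the median log2 fold change of the 7 tested genes was 3.54 in EpiLCs over ESCs, or 2.16 with Sohlh1 placed at its lower bound, and -0.0065 over all tested genes. It was -1.5 in D2 over EpiLCs (0.0033 over all), 1.6 in D6 over D2 (0.00 over all) and 4.04 in D6 over ESCs (2.80 with Sohlh1 at its bound, and -0.0022 over all). Sohlh1 passed the filter through the 3 libraries in which it was high, so these medians support no statement about the group.

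Levels can be compared between genes only per length of exon, in CPM per kb. On D6 the order was Sohlh2 (42.0 ± 3.96, SD, n = 3), Dmrt1 (30.8 ± 6.52), Taf4b (7.62 ± 0.430), Taf7l (3.52 ± 1.33) and Ctcfl (1.29 ± 0.251), with Sohlh1 and Nobox both at 0.134, Figla at 0.054 and Lhx8 at 0.0037. Sohlh2 exceeded 93.9% of the tested genes on this scale, Dmrt1 91.1% and Ctcfl 38.5%. In ESCs Taf4b (7.18 ± 0.668) and Sohlh2 (6.07 ± 0.792) came first and Dmrt1 reached 1.78 ± 0.303. The order of the last 4 genes on D6 does not exceed their spread.

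Each germline paralogue was set beside its general partner on the same scale. Taf7l made up 0.374% ± 0.0317 (SD, n = 3) of the Taf7l and Taf7 total in ESCs, 4.79% ± 1.69 in EpiLCs, 2.25% ± 0.404 on D2, 4.69% ± 1.63 on D4 and 9.51% ± 3.79 on D6. Taf7 itself went from 56.5 ± 1.07 CPM per kb in ESCs to 33.7 ± 2.49 on D6. Ctcfl stayed a small part of its pair with Ctcf, at 0.0964% ± 0.0489 in ESCs and 2.66% ± 0.275 in EpiLCs. Its share was 0.245% ± 0.127 on D2, 1.10% ± 0.0477 on D4 and 3.06% ± 0.687 on D6, where it overlapped with EpiLCs. Ctcf itself went from 55.5 ± 1.28 CPM per kb in EpiLCs to 40.9 ± 2.62 on D6. Taf4b was a large part of its pair with Taf4 throughout, at 34.1% to 41.6% in the group means.

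**Figure D4:**
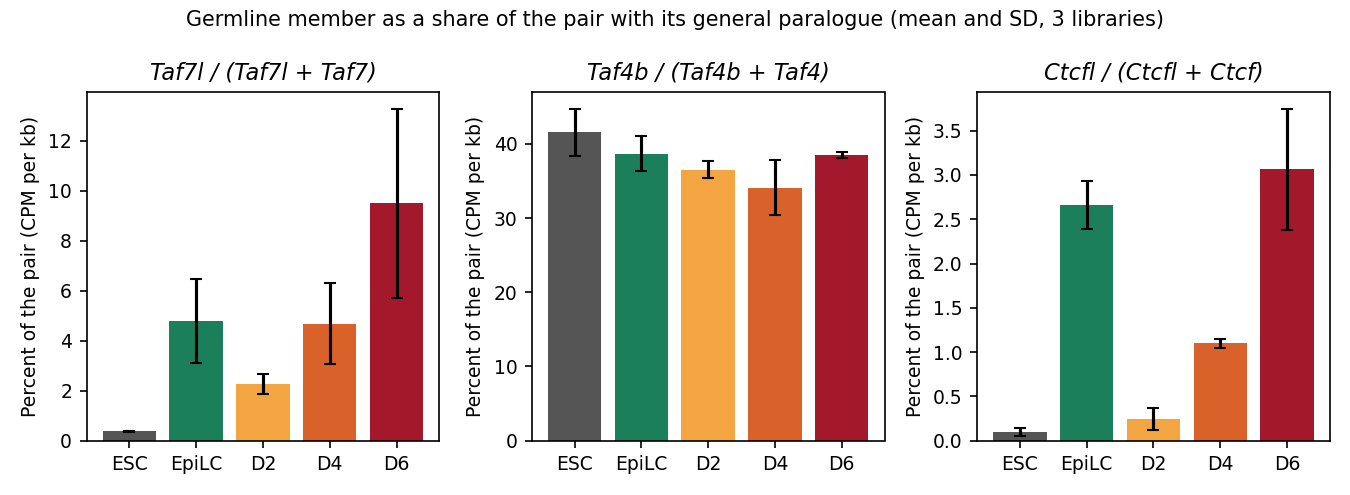
Share of Taf7l, Taf4b and Ctcfl in the total of each with its general paralogue (Taf7, Taf4, Ctcf), in percent of CPM per kb of exon. Bars and whiskers are the mean and SD of 3 libraries in ESCs, EpiLCs and PGCLCs on D2, D4 and D6. The Taf7l share reaches 9.51% on D6, the Ctcfl share 3.06%, and the Taf4b means lie between 34.1% and 41.6%.

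Among other genes of these families, 13 of 14 listed paralogues and close relatives were in the table and 11 were tested. The shares of all tested genes given above for each comparison apply to this list and the lists below. In D6 over ESCs 3 rose, against 15.8% of all tested genes: Dmrtb1 by 2.24, Dmrt3 by 1.62 and Dmrtc2 by 1.57 on the log2 scale. All 3 are of the DM-domain family, of which Dmrta2 (0.085) and Dmrt2 (-1.08) were not called. By edgeR or DESeq2 0 were called lower, against 10.3% by edgeR, with 2 lower at an unadjusted p under 0.05. These were Taf7 (-0.74, edgeR adjusted p = 9.36e-08) and Ctcf (-0.33, adjusted p = 0.00203), which missed the fold cutoff only. The list's median was 0.14 there. In EpiLCs over ESCs Dmrtb1 was the one called higher (1.01), and Dmrta2 (-1.79) and Dmrt2 (-3.05, SE 1.15) were called lower. Dmrt2 had few counts, 15 to 25 in ESC libraries and 0 to 7 in EpiLCs, so the size of its fall is uncertain. In D2 over EpiLCs 2 were higher, Dmrt3 (1.44) and Lhx6 (1.96), a LIM-homeodomain relative of Lhx8. From D2 to D6 Dmrtb1 (1.81) and Dmrta2 (1.55) were higher and Lhx6 was lower (-1.01). In D6 over EpiLCs 4 were higher, Dmrta2 (1.87), Dmrt3 (1.86), Dmrtc2 (1.51) and Dmrtb1 (1.22).

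Of the 16 listed genes of TFIID, the complex that TAF7L and TAF4B can enter, and its relatives, 15 were tested. In D6 over ESCs 1 was higher, Gtf2a1l, a germline form of a TFIIA subunit, and 1 was lower, Taf1 (-1.05), the largest TFIID subunit. Gtf2a1l was also called in EpiLCs over ESCs, with 0 to 1 counts in ESC libraries, 10 to 21 in EpiLCs and 0 to 23 on D6, and no fold is given against so few counts. In the 5 other comparisons edgeR and DESeq2 called 0 of the list in either direction, with 0 to 5 a direction at an unadjusted p under 0.05. The median of the list in D6 over ESCs was 0.033.

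Genes known to lie downstream of these regulators moved in both directions. Of 23 listed genes 15 were tested, and in D6 over ESCs 6 rose and 3 were lower, with a median of 0.83. Stra8, the gatekeeper of meiosis, was higher by 7.08 and went from 23 to 41 counts in ESCs to 5804 to 6847 on D6. Dazl, a germ cell RNA-binding protein, was higher by 5.28 and Nlrp14, a gene of oocytes, by 2.70. Neurog3, a gene of spermatogonia, was called higher with 0 to 1 counts in ESC libraries and 7 to 16 on D6. Lower on D6 than in ESCs were Zp3 (-3.92), which encodes a zona pellucida protein, Zbtb16 (-1.66), a spermatogonial stem cell factor, and Gal3st1 (-1.06), a sulfotransferase gene. In D2 over EpiLCs 4 were higher and 5 lower, among them Kit (3.46), the receptor of germ cell survival, Stag3 (2.25), a meiotic cohesin, Sox3 (-5.42) and Neurog3 (-4.04). Zp2, another zona pellucida gene, was among the lower ones with 9 to 34 counts in EpiLCs and 0 to 2 on D2. Kit and Stag3 had been lower in EpiLCs than in ESCs, by -2.53 and -1.79. Over ESCs, D6 differed by 0.96 for Kit, which was not called, and by 1.01 for Stag3, which was. The 8 genes removed by the filter, among them Bmp15, Nlrp5, Tnp1 and Prm1, had at most 19 counts in any library.

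Genes that repress germline promoters, in the variant Polycomb complex PRC1.6 and in DNA and H3K9 methylation, were all 17 tested. In EpiLCs over ESCs Dnmt3a (3.79) and Dnmt3b (3.54), the de novo DNA methyltransferases, were the 2 genes of this list called higher, against 14.4% of all tested genes. By edgeR or DESeq2 0 were called lower, against 11.9% by edgeR, with 4 lower at an unadjusted p under 0.05. Some of these also had an adjusted p under 0.05 and missed the fold cutoff only. In D2 over EpiLCs Dnmt3a (-3.74) and Dnmt3b (-4.94) were lower and Ring1 (2.03), a Polycomb ubiquitin ligase, was higher. In D6 over ESCs Ring1 (1.21) was higher, and Dnmt3b (-1.47) and Uhrf1 (-1.41), the partner of the maintenance methyltransferase, were lower. The medians of the list in these comparisons were 0.27, -0.24 and 0.079. Whether any of these genes acts on the regulators was not tested.

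Markers of other cells were read beside the results. The summed level of 6 formative epiblast markers was 116 to 158 CPM on D2, when Taf7l and Ctcfl were low. It was 143 to 208 CPM on D6, when they were higher. Most of that sum was Dnmt3a (79.1 CPM on D2, 114 on D6) and Dnmt3b (50.6 and 48.5). ESCs also expressed these genes, at 76.4 and 134 CPM. Of the others, mean Fgf5 was 0.895 CPM on D2 and 0.437 on D6, and Sox3 was higher on D6 by 2.73 on the log2 scale. Dmrt1 is also a gene of Sertoli cells, and 7 gonadal soma markers summed to 24.1 to 29.2 CPM in EpiLCs and 2.25 to 4.80 elsewhere. Most of the EpiLC sum was Wt1 (23.7 CPM ± 2.30, SD, n = 3), while Fshr and Nr5a1 were at 0 in its 3 libraries. Feeder fibroblast markers (7 genes) summed to 18.3 to 19.8 CPM in EpiLCs and to 0.919 to 8.41 elsewhere, endoderm markers (6 genes) to 9.09 to 16.9 CPM on D6 and 0.690 to 6.36 elsewhere, and mesoderm markers (6 genes) to 8.30 to 39.5 CPM in all groups. Within the mesoderm sum, mean Hand1 went from 1.24 CPM on D2 to 13.1 on D6, and mean Eomes from 19.1 to 14.2. Mean Gata6, in the endoderm sum, went from 0.244 CPM on D2 to 9.25 on D6. Naive pluripotency markers (7 genes) had summed levels of 2430 to 2453 CPM in ESCs, 1121 to 1547 in PGCLCs and 393 to 397 in EpiLCs. The part of these cells in the levels of the regulators was not tested.

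The genes with the pattern most like each regulator were taken by Pearson's r of log2(CPM + 1) over the 15 libraries, among 11391 genes with a mean of at least 100 counts, as a description in which all points share the same libraries and group structure. For Dmrt1 these were Selenop (r = 0.986), Traf4 and Entpd6, for Sohlh2 Slc43a3 (0.982), Arhgap10 and Tex13c2, and for Ctcfl Rprd1a (0.984), Raver2 and Ermp1. Taf7l was nearest to Ggct (0.953), Rec114, a gene of meiotic recombination, and Nlrp4c. The likeness was weaker for Nobox (Kpna2, 0.907), Sohlh1 (Lrfn4, 0.795) and Taf4b (Sec24b, 0.744). Between the regulators themselves, r was 0.949 for Sohlh2 and Taf7l, 0.894 for Dmrt1 and Sohlh2, 0.868 for Taf7l and Ctcfl and 0.643 for Dmrt1 and Ctcfl.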

How the data were processed

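RNA-seq was analysed in 15 samples. The authors made directional libraries from total RNA, aligned reads to mouse mm10 with ENSEMBL annotation and deposited raw counts per gene. The submitters' processing notes name Trim Galore, FastQC and STAR, and the counting tool, its strand setting and versions are not given in the sources used here. The 55536 gene IDs were matched to GENCODE M21.

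The members and gene lists were chosen with earlier results of these data known. The genes named were all 9 members, the called genes of the paralogue list, at most 4 highest and 4 lowest called in the TFIID, downstream and repressor lists, and the 3 genes most like each member. Counts were tested with edgeR 4.0.16 in R 4.3.3 (TMM, filterByExpr with a minimum of 10, 1 quasi-likelihood fit of 15 samples, Benjamini-Hochberg over 18090 genes). A gene was called when its log2 fold change exceeded 1 in size at an adjusted p under 0.05. Both edgeR and DESeq2 1.42.0 were tested on simulated data. The alternatives were DESeq2, its size factors in edgeR, no filter, only the groups compared, the replicate number as a block, no fold cutoff and each library left out. Replicate numbers in the labels paired samples by the data alone where each of 3 same-numbered pairs had a correlation of deviations over 0.1, which held for D2 with D4 (0.350 to 0.367) and D2 with D6 (0.117 to 0.413) and not for D4 with D6 (0.0395 to 0.450) or any comparison with ESCs or EpiLCs. A block fit of the PGCLC groups alone was added after seeing the data. Chi-square per gene between replicates was 8.82 to 44.6, so none were counted as 1 sample.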

Additional observations from a re-analysis of the deposited data

How the results depend on the processing

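The number of regulators called in EpiLCs over ESCs, D2 over EpiLCs, D6 over D2 and D6 over ESCs stayed within 1.5 times under every alternative run. With each library left out, these counts were 5 to 6, 2 to 3, 3 and 4 to 5. In D4 over D2 the count of 2 became 1 with DESeq2, its size factors, only the groups compared or either replicate block, and 1 to 2 with a library left out. In D6 over D4 the count of 1 became 2 with DESeq2, its size factors or the block in PGCLC groups only (chosen after seeing the data), 3 with no fold cutoff, and 1 to 2 with a library left out. The fits with 1 call in D4 over D2 had lost Taf7l, and those with 2 calls in D6 over D4 had gained it. In D6 over EpiLCs the count of 1, Nobox called lower, became 0 with only the groups compared (edgeR adjusted p = 0.0655). It became 3 with no fold cutoff, 2 higher and 1 lower, and 0 to 1 with a library left out. The cause was not tested. Signs turned for Dmrt1 in D2 over EpiLCs (-0.024 with either use of size factors, -0.043 to 0.11 with a library left out), Taf4b in D6 over EpiLCs (0.0048 with no filter, -0.10 to 0.082), D2 over EpiLCs (-0.16 to 0.026) and D6 over D2 (-0.027 to 0.13), and Nobox in D6 over ESCs (-0.085 with the replicate block, -0.48 to 0.67), D4 over D2 (-0.72 to 0.17), D6 over D4 (-0.095 with the PGCLC block, -0.49 to 0.66) and D6 over D2 (-0.77 to 0.38). In the comparisons that replicate numbers paired, the replicate block changed no call but that of Taf7l in D4 over D2. In the others, the 15-sample block changed only Nobox in D2 over EpiLCs (-2.14, adjusted p = 0.0496), also called in 3 alternatives without the block, and the PGCLC block changed only Taf7l in D6 over D4 (1.01). Depth limits Sohlh1, Figla, Lhx8 and Nobox, where 3 counts are at most 0.132 CPM and a difference near that level was not detectable.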
